A study of Mus musculus with 12 samples.

Results

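The genes described here are 41 genes of S phase and DNA replication, chosen by name as a list of genes whose products license origins, supply nucleotides, copy DNA at the fork, repair it and package it. All 41 were among the 32544 genes of the deposited table, and all 41 were among the 14285 genes that passed the filter on low counts. They were divided by the known role of their products into 11 licensing genes, 3 genes of nucleotide supply, 9 fork genes, 6 repair genes, 9 genes of chromatin and histone supply, and 3 S phase regulators and others.

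RNA had been sequenced from bone marrow-derived macrophages (BMDMs) and from NIH/3T3 fibroblasts, a mouse embryonic fibroblast line, in 4 groups of 3 libraries. The BMDMs labelled WT came from mice with the LysMCre transgene. Those labelled PHD2cko came from mice that carried, with the same LysMCre transgene and otherwise the same background, a conditional allele of Egln1, the gene of the oxygen sensor PHD2. LysMCre acts in macrophages and granulocytes, so cells of other types in a marrow culture would keep the gene. BMDM RNA was taken 24 h after seeding. The labels give 24 to 48 h of starvation for the 3T3 cells in 0.1% FCS, and the paper's methods for its collagen assay name 48 h for 3T3 cells. After starvation the 3T3 cells spent 72 h in medium that BMDMs of either label had conditioned for 24 h with 2% FCS. 3T3 cells of both groups were thus of one genotype and differed by the label of the macrophages behind their medium. The sources do not give the age or sex of the mice, do not say whether the 3 libraries of a group came from separate animals or cultures, and leave the oxygen level of these cultures unnamed. If the libraries are technical replicates, the p-values measure technical spread only.

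Egln1 itself did not follow the label. Its normalised level was 55.8, 54.7 and 55.5 counts per 1e6 counts (CPM) in the WT BMDMs and 68.8, 68.3 and 71.6 CPM in the BMDMs labelled PHD2cko. The libraries labelled PHD2cko were all above the WT libraries, a log2 difference of 0.33 (SE, the standard error, 0.0527; edgeR's adjusted p = 0.00203). A count per gene does not show whether the deleted exon was transcribed, so the label of these libraries is given throughout as the label and not as a measured loss of PHD2.

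DNA replication is prepared in G1, when Cdc6 and its partners load the Mcm2-7 helicase onto origins, and begins in S phase, when Cdc45 and the GINS complex turn that helicase into a moving fork. Ribonucleotide reductase and thymidylate synthase supply the building blocks, polymerase alpha with primase starts each strand, and the PCNA clamp holds the polymerases on DNA. Many of these genes are transcribed in a burst at the G1/S transition, under E2F factors bound near their start sites. In macrophages grown from marrow and in a growing fibroblast line their mRNA is widely used as a sign of cycling cells. In bulk RNA, however, more cells in S phase and more mRNA per S phase cell cannot be told apart.

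The promoter sequences are shown first because E2F sites near the start are the shared feature for which this group of genes is known. RefSeq promoters on GRCm38.p6, from 250 bases before to 50 bases after the start, were found for 31 of the 41 genes, at 35 starts. Of these starts, 26 lay within 100 bases of the start of the gene in GENCODE. The E2F motif was searched as TTTCGCGC or TTTGGCGC on both strands, and 9 of the 31 genes held a match. A gene was counted if any of its starts held the motif. Mcm7 and Uhrf1 each also had another start without a match. The stretch around each match is given 5′ to 3′ on the strand of the gene, with the motif in capitals (overlapping matches run together), and with the position of the stretch.
Casp8ap2, chr4:32615269-32615326, plus strand: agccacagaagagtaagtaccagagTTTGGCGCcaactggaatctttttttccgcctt
Clspn, chr4:126556990-126557019, plus strand: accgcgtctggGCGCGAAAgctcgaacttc
Dtl, chr1:191575545-191575577, minus strand: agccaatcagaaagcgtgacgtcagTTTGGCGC
Mcm3, chr1:20820263-20820292, minus strand: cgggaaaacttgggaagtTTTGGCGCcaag
Mcm5, chr8:75109331-75109392, plus strand: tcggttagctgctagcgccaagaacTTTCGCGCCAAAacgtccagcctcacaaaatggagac
Mcm6, chr1:128359720-128359840, minus strand: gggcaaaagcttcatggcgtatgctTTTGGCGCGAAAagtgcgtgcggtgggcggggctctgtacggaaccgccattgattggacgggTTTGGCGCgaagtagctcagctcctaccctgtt
Mcm7, chr5:138171849-138171878, minus strand: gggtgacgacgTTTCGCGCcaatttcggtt
Pola1, chrX:93632261-93632318, minus strand: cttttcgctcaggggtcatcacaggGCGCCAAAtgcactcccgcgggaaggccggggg
Uhrf1, chr17:56304103-56304160, plus strand: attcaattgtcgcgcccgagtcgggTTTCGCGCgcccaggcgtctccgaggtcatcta

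Of these 9 genes, 4 encode subunits of the Mcm2-7 helicase. Mcm6 and Mcm5 each hold overlapping matches on opposite strands, and Mcm6 has a further match 47 bases before its start. The motif was present for 29% of the 31 genes, against 0.929% of the 27025 genes with a promoter in the whole table and 1.7% of the 10275 tested genes with one. The NF-Y motif CCAAT was in 22 of the 31 (71%), against 41.1% and 43.3%. TTTGAA, the CHR motif of genes that peak later in the cycle, was in 6 of 31 (19.4%), against 20.2% and 14.6%. A match is a run of letters and not a measured binding site.

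The libraries held 15516465 to 25199770 counts. The cell type labels were checked with marker lists, as summed CPM over the total count. The 23 macrophage markers ran from 41600 to 47900 CPM in BMDMs and from 34.4 to 984 CPM in 3T3, and the 14 fibroblast markers from 493 to 556 CPM in BMDMs and from 25400 to 33400 CPM in 3T3. Within 3T3, RNA of macrophage type moved with the label of the medium: 21 of the 23 macrophage markers were higher in PHD2cko medium and none of the 23 was at 0 in all 3 libraries of either group. Its share, from the macrophage markers, was 0.0729 to 0.0848% in WT medium and 2.33, 0.554 and 2.08% in PHD2cko medium. Subtracting that share removed at most 4.86% of the counts of any of the 41 genes in a 3T3 library, which was the value for Pcna. Fibroblast markers also moved, from 25400 to 27300 CPM in WT medium to 32400 to 33400 CPM in PHD2cko medium, with 6 of 14 higher and 1 lower. The 10 B and plasma cell markers were at 4.25 to 5.88 CPM in WT medium and 13.0 to 14.8 CPM in PHD2cko medium, and the 7 markers of granulocyte-monocyte progenitors at 374 to 423 and 449 to 471 CPM. With the macrophage share subtracted, all 17 replication genes called in 3T3 still passed by edgeR and no other of the 41 did. What part the B cell, progenitor and fibroblast markers have in the 3T3 values was not tested. Replicate 1 in WT medium stood apart from the other libraries of its group across all genes: chi-square over its degrees of freedom was 25.1 and 27.0 against each of them, and 2.35 between them. Replicate 3 of the BMDMs labelled PHD2cko was at 8.42 and 7.4 against the others of its group, with 2.13 between those, and in 3T3 in PHD2cko medium the 3 pairs were at 6.54 to 7.10. The pairs of WT BMDMs were at 1.99 to 4.44. Over the 41 genes alone, pairs of WT BMDMs were at 0.994 to 1.37, where counting error alone gives about 1. Those labelled PHD2cko were at 1.63 to 4.47, and 3T3 at 2.03 to 5.54 in WT medium and 1.11 to 3.81 in PHD2cko medium.

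In BMDMs, the first question was whether the PHD2cko label went with a change in replication genes. It did for a minority of them, and every gene past the threshold was higher: Mcm2, Mcm3, Mcm6, Dtl, Rrm1, Rrm2, Pcna, Clspn and Exo1. These 9 genes are 22% of the list, against 3.38% of all genes tested that were higher at an adjusted p under 0.05 (quasi-likelihood test of edgeR, p-values adjusted by Benjamini and Hochberg's method over all genes tested). None was lower by edgeR, against 3.35% of all genes, and none by DESeq2 or limma-voom, while at an unadjusted p under 0.05 by edgeR 19 were higher and 1, Tyms, was lower. The median log2 fold change of the 41 genes was 0.18, and that of all genes 0.00022. For 20 of the 41 genes (48.8%, against 16.3% of all genes) the 3 libraries labelled PHD2cko lay above all 3 WT libraries, and for 1 (2.44%, against 15.6%) they lay below. The size of the changes was small, since Rrm2 reached 1.88-fold and the other 8 were between 1.17-fold and 1.67-fold. The count fell to 4 (9.76%) without WT replicate 1, without WT replicate 2 or without PHD2cko replicate 1, where 1.80 to 2.05% of all genes were higher.

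Markers of macrophages and of other marrow cells were read beside these counts. The 23 macrophage markers summed to 46700 to 47900 CPM in WT BMDMs and to 41600 to 43200 CPM in those labelled PHD2cko, without overlap, while 0 of the 23 passed in either direction by edgeR and 2 were lower at an unadjusted p under 0.05. The summed level of 7 markers of granulocyte-monocyte progenitors was 8.21 to 11.2 CPM in WT BMDMs and 13.7 to 15.6 CPM in those labelled PHD2cko. Nearly all of that rise was Sox4, with 94, 139 and 111 counts against 202, 192 and 217, while Prtn3, Ctsg, Myb and Ms4a3 held 0 to 2 counts in each BMDM library and Cd34 overlapped between the labels. The 10 B and plasma cell markers fell in sum, from 196 to 202 CPM in WT to 161 to 175 CPM, but most of them did not fall. Of the 5 that passed the filter, 4 had a positive log2 fold change and 1 a negative one. The median was 0.73, with a range from -0.28 to 7.51, and 2 were called higher and 1 lower. In WT BMDMs 5 of the 10 were at 0 in all 3 libraries, and under the PHD2cko label 2 were. The 14 fibroblast markers were at 493 to 535 and 509 to 556 CPM, with 2 higher. Neutrophil markers stayed at or under 4.79 CPM, T and NK cell markers at or under 5.80 CPM, erythroid markers at or under 1.19 CPM, and mast cell and basophil markers at or under 1.27 CPM in BMDMs and between 15.8 and 18.3 CPM in 3T3. What part the macrophage, B cell and Sox4 values have in the replication genes was not tested.

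In 3T3 fibroblasts, the medium of macrophages labelled PHD2cko was compared with WT medium. More of the list passed the threshold, again in 1 direction. The 17 higher genes, 41.5% of the list against 8.93% of all genes, were Mcm2 to Mcm7, Cdc6, Dtl, Rrm1, Rrm2, Pcna, Pola1, Nasp, Uhrf1, Hells, Atad2 and E2f8. None was lower by edgeR (6.75% of all genes were), none by DESeq2 or limma-voom, and at an unadjusted p under 0.05 by edgeR 29 were higher and 0 lower. The median log2 fold change was 0.26, where that of all genes was -0.0046. The 3 libraries in PHD2cko medium lay above all 3 in WT medium for 25 of the 41 genes (61%, against 15.4% of all genes) and below them for 0 (16.5% of all genes). Uhrf1 and Mcm5 were highest, at 1.51-fold and 1.48-fold. The count was 25 without WT medium replicate 1, the library that stood apart, where 11.6% of all genes were higher. It was 11 without PHD2cko medium replicate 1 or without replicate 3, where 5.68% and 5.5% of all genes were. With the counts of a pseudogene of Pcna added to Pcna, it was 16 (39%).

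The genes past the threshold in both cell types were Dtl, Mcm2, Mcm3, Mcm6, Pcna, Rrm1 and Rrm2. These 7 are 77.8% of the 9 in BMDMs and 41.2% of the 17 in 3T3. Of all genes tested, the 100 that were higher in both are 20.7% of those higher in BMDMs and 7.84% of those higher in 3T3. In all, 19 of the 41 genes (46.3%, against 11.6% of all genes) were higher in either cell type and 22 passed in neither. Pcna was lost from the 3T3 genes with the pseudogene counts added, and so from those shared.

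**Figure D1:**
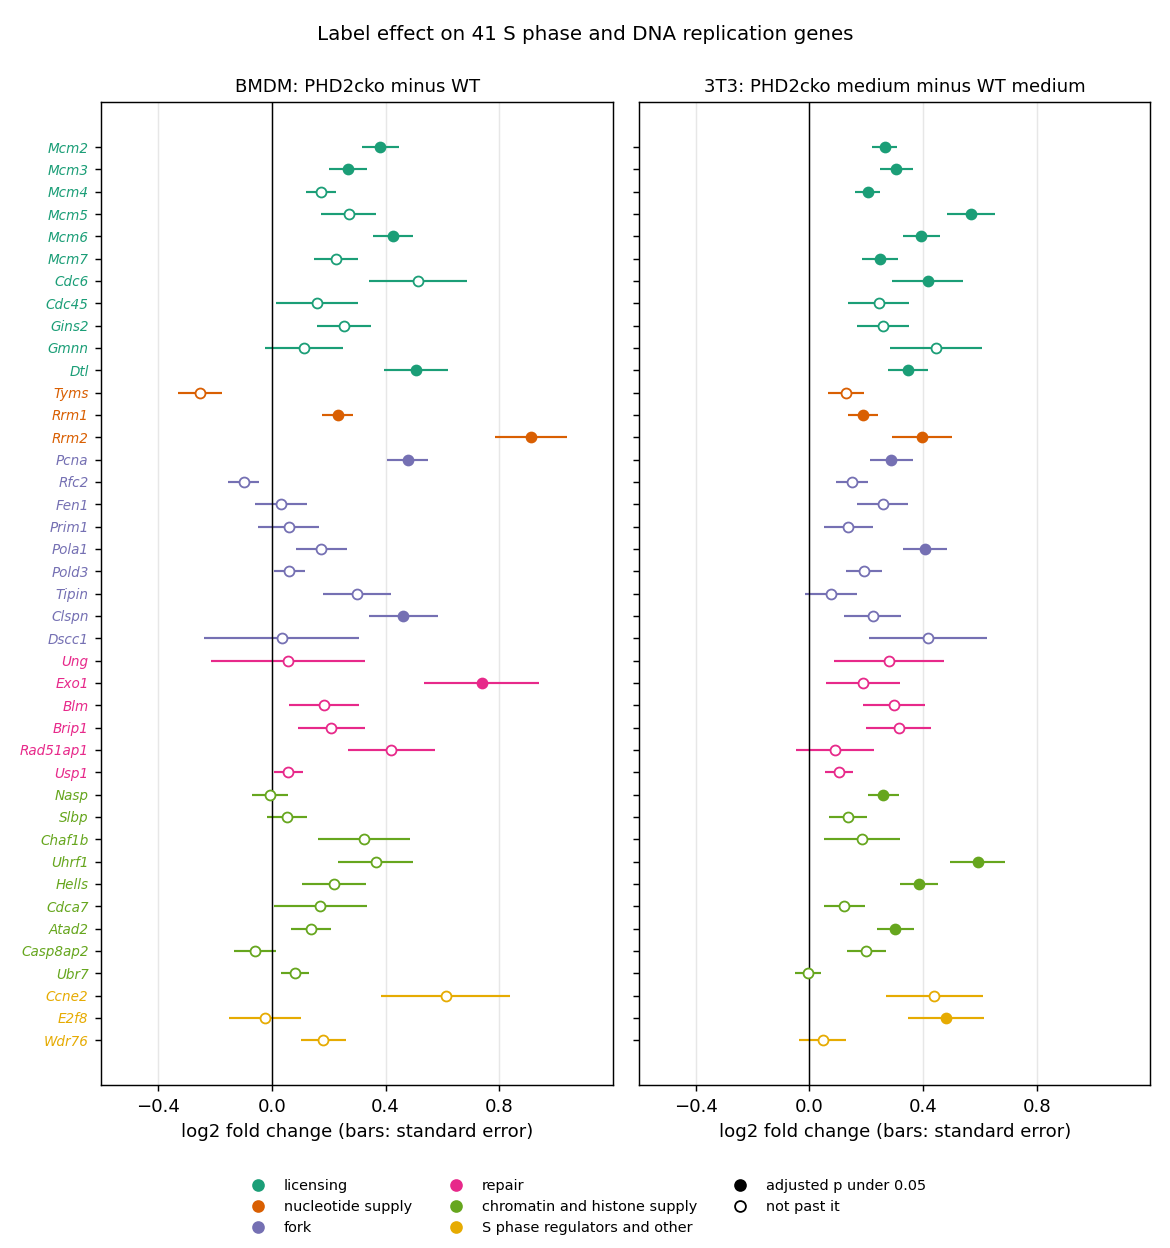
Log2 fold change of the 41 genes (x axis) for libraries labelled PHD2cko against WT in BMDMs and for PHD2cko medium against WT medium in 3T3, with bars of 1 standard error and genes grouped by role (y axis, colour). Filled points passed the edgeR threshold, 9 in BMDMs and 17 in 3T3, and all of these lie to the right of 0.

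Of the 11 licensing genes, the largest of these roles, 4 passed the threshold in BMDMs (where 3.38% of all genes were higher) and 8 in 3T3 (8.93% of all genes). All 11 had a positive log2 fold change in both cell types, and the medians were 0.27 and 0.31. The 6 subunits of the Mcm2-7 ring, the helicase that unwinds DNA ahead of the fork, all passed in 3T3, and Mcm2, Mcm3 and Mcm6 passed in BMDMs. Mcm2 (ENSMUSG00000002870.8, GRCm38 chr6:88883474-88898780, minus strand) was at 10.2, 10.4 and 10.3 CPM in WT BMDMs and at 13.7, 13.3 and 13.3 CPM in those labelled PHD2cko. The groups were well apart, and the log2 fold change was 0.38 (SE 0.0654, adjusted p = 0.00317, edgeR). In 3T3 it was at 70.1, 71.7 and 67.1 CPM in WT medium and at 81.2, 81.4 and 88.4 CPM in PHD2cko medium, again without overlap (log2 fold change 0.26, SE 0.0451, adjusted p = 0.00176, edgeR).

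Mcm6, which carries a pair of E2F matches and a single one in the promoter printed above, behaved much the same in both. It was at 39.0, 42.3 and 37.3 CPM in WT BMDMs against 58.3, 51.4 and 49.9 CPM under the PHD2cko label, and at 72.5, 68.5 and 66.7 CPM in 3T3 in WT medium against 94.4, 85.9 and 92.6 CPM in PHD2cko medium. Neither pair of groups overlapped, and the log2 fold changes were 0.43 (SE 0.0708, adjusted p = 0.00268) and 0.39 (SE 0.0652, adjusted p = 0.00148, both edgeR). Mcm3 was at 24.0, 22.9 and 22.9 CPM in WT BMDMs and at 29.5, 26.5 and 28.0 CPM in those labelled PHD2cko, while in 3T3 it went from 63.0, 56.1 and 57.5 CPM to 73.1, 68.9 and 76.0 CPM. Its groups were apart in both cell types, with log2 fold changes of 0.27 and 0.31 (adjusted p = 0.0309 and 0.00309, edgeR), and the BMDM call was lost in 5 of the 12 fits that left out 1 library.

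Mcm5 showed its clearest difference in 3T3. There it was at 41.4, 39.2 and 35.1 CPM in WT medium and at 57.9, 53.2 and 60.4 CPM in PHD2cko medium, a log2 fold change of 0.57 (SE 0.0835, adjusted p = 0.000694, edgeR) with no overlap. In BMDMs it was at 19.2, 20.6 and 21.2 CPM against 28.1, 22.0 and 23.5 CPM, where replicate 1 of the PHD2cko label was the highest, and the log2 fold change of 0.27 did not pass (adjusted p = 0.135, edgeR). Mcm5 and Gins2 lie on chromosome 8, as Egln1 does. On that chromosome 6.05% of the genes tested were higher and 6.75% lower in BMDMs labelled PHD2cko, against 3.33% and 3.27% elsewhere, and its part in their values was not tested.

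Mcm4 and Mcm7 complete the ring. Mcm4 was at 81.6, 82.4 and 77.4 CPM in 3T3 in WT medium and at 90.7, 94.2 and 93.5 CPM in PHD2cko medium. Mcm7 was at 72.1, 70.1 and 68.2 CPM and at 84.0, 77.8 and 88.3 CPM. Both sets of groups were separate, by log2 fold changes of 0.21 and 0.25 (adjusted p = 0.00726 and 0.0198, edgeR), and Mcm7 passed in 8 of the 12 fits without 1 library. In BMDMs Mcm4 was at 24.3, 24.2 and 25.7 CPM against 29.1, 27.0 and 27.5 CPM, and Mcm7 at 21.7, 21.2 and 23.7 CPM against 27.9, 23.4 and 26.5 CPM. Neither passed there (adjusted p = 0.075 and 0.114, edgeR), and Mcm7 overlapped between the labels.

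Among the other licensing genes, Dtl passed in both cell types. Dtl is the substrate receptor of the ubiquitin ligase that destroys the loader Cdt1 on replicating DNA. It was at 4.61, 4.18 and 5.05 CPM in WT BMDMs and at 7.22, 6.08 and 6.35 CPM in those labelled PHD2cko. In 3T3 it was at 26.1, 30.03 and 29.9 CPM in WT medium and at 36.2, 36.0 and 37.4 CPM in PHD2cko medium. The groups did not overlap in either, with log2 fold changes of 0.51 (SE 0.111, adjusted p = 0.0154) and 0.35 (SE 0.0694, adjusted p = 0.00501, both edgeR). In BMDMs limma-voom did not call Dtl, and it passed in 9 of the 12 fits without 1 library.

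Cdc6, which loads the Mcm ring, passed in 3T3 only just, at 10.3, 9.25 and 8.09 CPM against 12.9, 11.1 and 12.8 CPM (log2 fold change 0.42, adjusted p = 0.0398, edgeR), and was called in 5 of the 12 fits without 1 library. In BMDMs it was at 2.53, 2.78 and 3.10 CPM against 3.58, 3.48 and 4.88 CPM, apart but not past the threshold (adjusted p = 0.105, edgeR). Cdc45 and Gins2, which join the Mcm ring in the active helicase, and Gmnn, the inhibitor of Cdt1, passed in neither comparison by edgeR, while DESeq2 called Gmnn higher in 3T3. Their log2 fold changes were 0.16, 0.25 and 0.11 in BMDMs and 0.24, 0.26 and 0.45 in 3T3.

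Of the nucleotide supply genes, both subunits of ribonucleotide reductase, the enzyme that makes deoxyribonucleotides, passed in both cell types, and thymidylate synthase passed in neither. Of all genes, 3.38% were higher in BMDMs and 8.93% in 3T3. Rrm2 (ENSMUSG00000020649.11, GRCm38 chr12:24708241-24714146, plus strand), the small subunit, had the largest fold change of the 41 genes in BMDMs. It was at 14.0, 14.5 and 14.9 CPM in WT BMDMs and at 33.0, 22.8 and 25.7 CPM in those labelled PHD2cko. The WT libraries were close together, the others were widely spread with replicate 1 on top, and the log2 fold change was 0.91 (SE 0.126, adjusted p = 0.0007, edgeR). Over all other settings it ran from 0.75 to 1.02 and stayed past the threshold. In 3T3 Rrm2 was at 37.3, 41.6 and 34.5 CPM in WT medium and at 50.05, 46.2 and 53.3 CPM in PHD2cko medium, without overlap, for a log2 fold change of 0.40 (SE 0.106, adjusted p = 0.0243, edgeR) that passed in 9 of the 12 fits without 1 library.

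Rrm1, the large subunit, changed less. It was at 66.3, 67.2 and 64.9 CPM in WT BMDMs and at 81.8, 74.1 and 76.9 CPM in those labelled PHD2cko. In 3T3 it was at 95.8, 103 and 106 CPM in WT medium and at 118, 110 and 120 CPM in PHD2cko medium. Groups were apart in both, by log2 fold changes of 0.23 (adjusted p = 0.0249) and 0.19 (adjusted p = 0.0299, both edgeR). Without 1 library the BMDM call was lost in 5 of 12 fits and the 3T3 call in 3 of 12.

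Tyms (ENSMUSG00000025747.12, GRCm38 chr5:30058202-30073617, minus strand), which makes dTMP, went the other way in BMDMs. It was at 16.04, 15.4 and 15.9 CPM in WT BMDMs and at 13.5, 14.4 and 11.97 CPM in those labelled PHD2cko, and it was the 1 gene of the list whose 3 libraries labelled PHD2cko all lay below WT. Its log2 fold change of -0.25 (SE 0.0777) did not pass (adjusted p = 0.0791, edgeR). In 3T3 it was at 33.4, 35.5 and 36.3 CPM in WT medium and at 38.0, 40.6 and 36.6 CPM in PHD2cko medium, just without overlap and also not past the threshold (log2 fold change 0.13, adjusted p = 0.195, edgeR).

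Of the 9 fork genes, 2 passed in each cell type, Pcna and Clspn in BMDMs (where 3.38% of all genes were higher) and Pcna and Pola1 in 3T3 (8.93% of all genes). Pcna (ENSMUSG00000027342.14, GRCm38 chr2:132249162-132253314, minus strand) encodes the sliding clamp. It was at 135, 129 and 134 CPM in WT BMDMs and at 198, 181 and 175 CPM in those labelled PHD2cko, well apart, for a log2 fold change of 0.48 (SE 0.0732, adjusted p = 0.00147, edgeR). In 3T3 it was at 59.3, 53.0 and 52.7 CPM against 71.9, 59.2 and 70.0 CPM, where the lowest library in PHD2cko medium lay within the WT range (log2 fold change 0.29, SE 0.0767, adjusted p = 0.0238, edgeR), and the call held in 8 of 12 fits without 1 library.

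Reads of Pcna can also be assigned to its processed pseudogene copy Pcna-ps2. That copy held 2 to 9 counts in the BMDM libraries, where Pcna itself held 2080 to 3334. In 3T3 it held 562, 733 and 433 counts in WT medium and 464, 411 and 602 in PHD2cko medium, beside 1165, 1460 and 997 and then 1399, 1023 and 1446 counts of Pcna. With both counts added together, the 3T3 difference no longer passed (log2 fold change 0.19, adjusted p = 0.103, edgeR), while the BMDM difference did (log2 fold change 0.48, adjusted p = 0.00163, edgeR). The Pcna value in 3T3 is therefore uncertain, and without it 1 of the 9 fork genes passed there.

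Clspn, the adaptor that passes the checkpoint signal from a stalled fork to Chk1, was at 9.02, 11.2 and 12.05 CPM in WT BMDMs and at 16.3, 13.5 and 14.6 CPM under the PHD2cko label. These groups were apart, with a log2 fold change of 0.46 (SE 0.121, adjusted p = 0.0384, edgeR) that passed in 7 of 12 fits without 1 library. In 3T3, at 20.3, 23.4 and 23.8 CPM against 27.2, 23.5 and 28.1 CPM, it overlapped and did not pass (log2 fold change 0.22, adjusted p = 0.165, edgeR).

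Pola1, the catalytic subunit of polymerase alpha, passed in 3T3. It was at 24.0, 27.5 and 29.4 CPM in WT medium and at 38.6, 32.8 and 35.9 CPM in PHD2cko medium, without overlap (log2 fold change 0.41, SE 0.0782, adjusted p = 0.00393, edgeR). In BMDMs, at 17.5, 16.9 and 15.8 CPM against 19.2, 18.2 and 19.3 CPM, the groups were also apart but the log2 fold change of 0.17 did not pass (adjusted p = 0.331, edgeR). The remaining 6 fork genes passed in neither by edgeR, and limma-voom called Fen1 higher in 3T3. In 3T3 Fen1, the flap nuclease of the lagging strand, had a log2 fold change of 0.26 (adjusted p = 0.0689), and Pold3, a subunit of polymerase delta, 0.19 (adjusted p = 0.0559, both edgeR). Rfc2, of the clamp loader, was at -0.10 in BMDMs and 0.15 in 3T3, and Prim1 of primase, Tipin of the fork protection complex and Dscc1 of the cohesin-linked clamp loader ran from 0.03 to 0.30 in BMDMs and from 0.08 to 0.42 in 3T3.

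**Figure D2:**
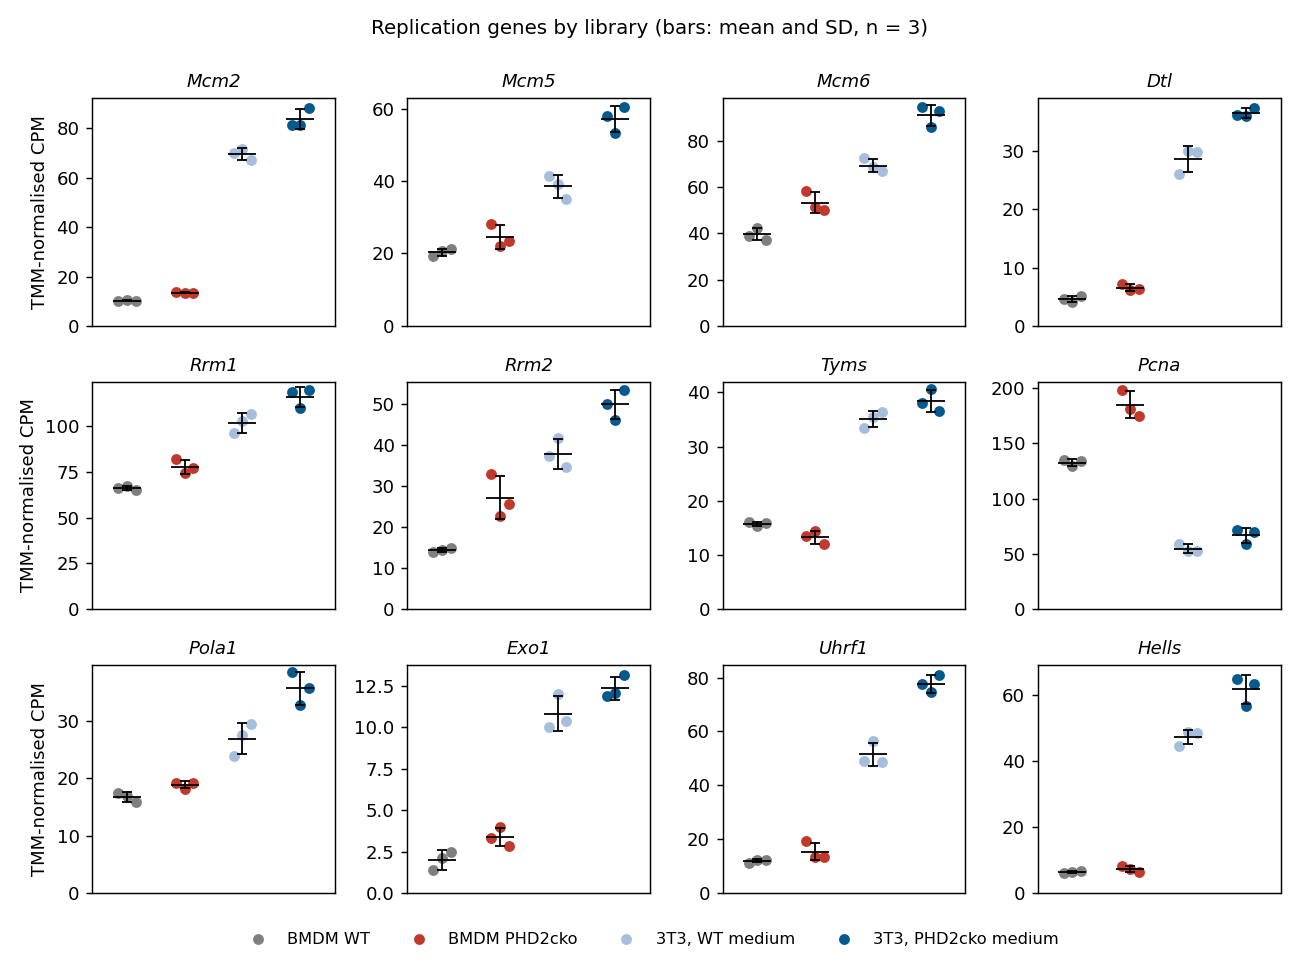
Normalised level in CPM (y axes, each from 0) of 12 genes in the 12 libraries, by group (colour, left to right), with 1 point per library and bars for the group mean and SD (n = 3). In BMDMs Rrm2 sits at 14.0 to 14.9 CPM in WT and at 22.8 to 33.0 CPM in the libraries labelled PHD2cko, while Tyms is lower there, at 11.97 to 14.4 against 15.4 to 16.04 CPM.

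Of the repair genes, 1 of 6 passed in BMDMs (3.38% of all genes were higher) and 0 of 6 in 3T3 (8.93% of all genes), where 3 were higher at an unadjusted p under 0.05 by edgeR and 0 passed by DESeq2 or limma-voom. All 6 log2 fold changes were positive in both cell types, with medians of 0.20 and 0.24, although that of Ung in BMDMs turned negative by limma-voom and in some fits without 1 library. Exo1, the exonuclease of mismatch repair and end resection, was at 1.36, 2.12 and 2.49 CPM in WT BMDMs and at 3.34, 3.96 and 2.83 CPM in those labelled PHD2cko. The groups were apart at a low level, and the log2 fold change of 0.74 (SE 0.203) passed by a narrow margin (adjusted p = 0.0486, edgeR). It was called in 4 of 8 other settings and in 3 of 12 fits without 1 library. In 3T3 Exo1 was at 10.0, 12.04 and 10.4 CPM against 11.9, 12.1 and 13.2 CPM, which overlapped (log2 fold change 0.19, adjusted p = 0.377, edgeR).

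For the helicases Blm and Brip1, the libraries in PHD2cko medium were all above those in WT medium, by log2 fold changes of 0.30 and 0.31 that did not pass (adjusted p = 0.0888 and 0.0878, edgeR). Rad51ap1, a factor of homologous recombination, was at 0.42 in BMDMs and 0.09 in 3T3. Ung, the uracil glycosylase, was at 0.06 and 0.28, and Usp1, which removes ubiquitin from Fancd2 and PCNA, at 0.06 and 0.11, all as log2 fold changes short of the threshold.

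Among the genes of chromatin and histone supply, 4 of 9 passed in 3T3 (8.93% of all genes were higher) and 0 in BMDMs (3.38% of all genes), where 1, Uhrf1, was higher at an unadjusted p under 0.05 by edgeR and 0 passed by DESeq2 or limma-voom. The difference of the label effect between the cell types passed for none of these 9 genes in the main edgeR fit or by limma-voom. In the main fit 2 were higher in 3T3 at an unadjusted p under 0.05. For Nasp it passed in 5 of 8 other settings, DESeq2 among them, and in 2 of 12 fits without 1 library. With the macrophage share subtracted its adjusted p was 0.0478 by edgeR. For Uhrf1 it passed in 1 of the 12 fits. Uhrf1 (ENSMUSG00000001228.14, GRCm38 chr17:56303321-56323486, plus strand), which brings the maintenance methyltransferase Dnmt1 to newly copied DNA, had the largest fold change of the list in 3T3. It was at 49.0, 56.5 and 48.7 CPM in WT medium and at 77.4, 74.5 and 81.1 CPM in PHD2cko medium. These groups were far apart, with a log2 fold change of 0.59 (SE 0.096, adjusted p = 0.0013, edgeR). In BMDMs it was at 11.2, 12.3 and 12.2 CPM against 19.2, 13.5 and 13.5 CPM, where replicate 1 of the PHD2cko label stood above the rest (log2 fold change 0.36, adjusted p = 0.135, edgeR).

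Hells, a chromatin remodeller needed for DNA methylation, was at 44.6, 48.6 and 48.4 CPM in 3T3 in WT medium and at 64.8, 56.8 and 63.4 CPM in PHD2cko medium. Its groups were apart there (log2 fold change 0.39, SE 0.0676, adjusted p = 0.00216, edgeR). In BMDMs it was at 5.97, 6.30 and 6.57 CPM against 8.26, 7.31 and 6.46 CPM, with overlap (log2 fold change 0.22, adjusted p = 0.328, edgeR). Nasp, a histone chaperone, was at 54.3, 53.4 and 51.5 CPM against 63.2, 62.4 and 65.1 CPM in 3T3, a narrow spread in both groups and a log2 fold change of 0.26 (SE 0.0548, adjusted p = 0.00686, edgeR). In BMDMs Nasp was at 26.0, 23.9 and 25.01 CPM against 27.1, 22.9 and 24.4 CPM, fully overlapping (log2 fold change -0.01).

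Atad2, a bromodomain protein of replicating chromatin, was at 65.1, 79.3 and 74.8 CPM in WT medium and at 88.6, 88.6 and 93.6 CPM in PHD2cko medium. It was apart in 3T3 (log2 fold change 0.30, SE 0.065, adjusted p = 0.00766, edgeR), and in BMDMs, at 51.1, 51.8 and 50.7 CPM against 59.7, 55.6 and 53.9 CPM, also apart but not past the threshold (log2 fold change 0.14, adjusted p = 0.315, edgeR). The other 5 genes passed in neither. Ubr7 was at a log2 fold change of -0.0045 in 3T3, whose sign turned with the scaling of the libraries. Slbp, which binds the stem-loop of histone mRNA, was at 0.05 in BMDMs and 0.14 in 3T3, and Chaf1b, of the chromatin assembly factor, at 0.33 and 0.19.

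Of the S phase regulators, E2f8, a repressor that shuts E2F targets off late in S phase, passed in 3T3. It was at 7.38, 10.0 and 10.7 CPM in WT medium and at 12.8, 12.1 and 14.3 CPM in PHD2cko medium, without overlap (log2 fold change 0.48, SE 0.134, adjusted p = 0.0293, edgeR), and it passed in 10 of the 12 fits without 1 library. In BMDMs it was at 17.0, 17.4 and 18.6 CPM against 18.7, 14.5 and 18.8 CPM, with overlap (log2 fold change -0.02). Ccne2, the cyclin E2 that drives entry into S phase, was at 2.40, 2.66 and 2.43 CPM in WT BMDMs and at 4.98, 4.17 and 2.47 CPM in those labelled PHD2cko. Replicate 3 of the PHD2cko label lay within the WT range, and the log2 fold change of 0.61 did not pass (adjusted p = 0.15, edgeR). In 3T3 Ccne2 was at 8.50, 6.42 and 7.24 CPM in WT medium and at 9.76, 9.78 and 10.4 CPM in PHD2cko medium, apart but not past the threshold by edgeR (log2 fold change 0.44, adjusted p = 0.106), while limma-voom called it higher. In BMDMs 0 of these 3 genes passed by edgeR (where 3.38% of all genes were higher), DESeq2 or limma-voom, and 2 were higher at an unadjusted p under 0.05 by edgeR. In 3T3 1 of the 3 passed by edgeR (8.93% of all genes).

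Seen by library, the differences were shared by all replicates but were not equally large. For each library the median over the 41 genes of the log2 difference from the WT mean of its cell type was taken. It was 0.31, 0.14 and 0.16 in BMDMs labelled PHD2cko, replicates 1 to 3, and 0.24, 0.21 and 0.33 in 3T3 in PHD2cko medium, while the 6 WT libraries lay between -0.05 and 0.04. The WT libraries form the mean that is subtracted, so they lie near 0 by construction. Replicate 1 labelled PHD2cko was thus the highest BMDM library. Of the 41 genes, 36, 32 and 33 were above the WT mean in the BMDM libraries labelled PHD2cko and 41, 40 and 39 in those of 3T3 in PHD2cko medium. In the WT libraries, replicates 1 to 3, these counts were 15, 22 and 27 in BMDMs and 25, 24 and 12 in 3T3. The share of all genes above the WT mean was not taken.

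**Figure D3:**
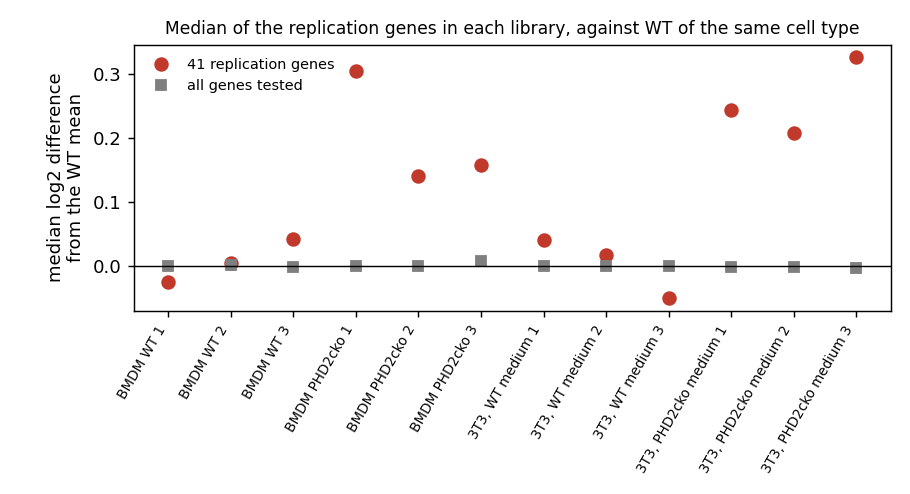
Median over the 41 genes of the log2 difference from the WT mean of the same cell type (y axis) for each of the 12 libraries (x axis, by group), beside the same median over all genes tested. The 6 libraries labelled PHD2cko lie between 0.14 and 0.33 for the replication genes, above the 6 WT libraries, and all medians over all genes lie near 0. WT libraries lie near 0 because they form the mean, and medians over all genes because of TMM scaling, so neither is a result.

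The difference of the label effect between the cell types was tested for each gene as an interaction. Tyms passed, with a label effect higher in 3T3 than in BMDMs by 0.38 on the log2 scale (SE 0.0998, adjusted p = 0.0253, edgeR). That is 1 of 41 genes (2.44%), against 7.71% of all genes tested. A lower effect in 3T3 passed for 0 of 41 by edgeR (4.58% of all genes), 0 by limma-voom and 1, Rrm2, by DESeq2, with 2 at an unadjusted p under 0.05 by edgeR. The Tyms call held in all 8 other settings and in 8 of the 12 fits without 1 library, where its adjusted p reached 0.0679. For Rrm2 the effect was lower in 3T3 by a log2 value of -0.51 (adjusted p = 0.0635, edgeR), and for Nasp it was higher by 0.27 (adjusted p = 0.0606, edgeR). The Nasp difference passed in 5 of 8 other settings and in 2 of 12 fits without 1 library. That of Rrm2 passed in 1 of 8 and in 2 of 12. Without WT medium replicate 1 of 3T3, 5 genes had a higher effect in 3T3: Tyms, Nasp, Rfc2, Fen1 and Gmnn. In that fit 2316 of all genes passed for the difference, both directions together.

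Between the cell types themselves the list differed far more than between the labels. WT BMDMs were compared with 3T3 in WT medium, a contrast in which cell type, medium and time cannot be told apart. Of the 41 genes, 31 (75.6%, against 44.9% of all genes tested) were lower in WT BMDMs and 6 (14.6%, against 40.4%) were higher, and the median log2 fold change was -1.03, where that of all genes was -0.081. The lower genes reached log2 fold changes of -3.88 for Cdca7, a partner of Hells, -2.91 for Hells, -2.76 for Mcm2 and -2.64 for Dtl. The 6 higher genes were Gmnn (1.58), Pold3 (1.47), Pcna (1.27), Rfc2 (1.03), E2f8 (0.91) and Wdr76 (0.55), each as a log2 fold change. With the Pcna-ps2 counts added, that of Pcna was 0.72. Fen1, Brip1, Casp8ap2 and Gins2 did not pass.

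Levels of different genes can be compared per length only, here as CPM per kilobase of the longest annotated transcript. With that length Pcna was the most abundant of the 41 mRNAs in all 4 groups, at 87.4 ± 2.07 CPM per kb in WT BMDMs and 36.2 ± 2.45 in 3T3 in WT medium (SD, n = 3 each). Gmnn (16.9 ± 1.07) and Pold3 (15.6 ± 0.15) came next in WT BMDMs and differed by little more than the spread of Gmnn. Usp1 (24.2 ± 1.25) and Mcm7 (23.7 ± 0.667) came next in 3T3 in WT medium and also lay within their spread. Exo1 was the lowest in WT BMDMs, at 0.255 ± 0.0739 CPM per kb, and Dscc1 the lowest in 3T3 in WT medium, at 1.16 ± 0.26. The median over the list, taken in each library and averaged over the 3 of a group, was 4.06 CPM per kb in WT BMDMs and 6.68 in 3T3 in WT medium.

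The Mcm2-7 subunits, which form 1 ring in equal numbers, were not at equal mRNA levels per length. They ran from 2.94 CPM per kb (Mcm2) to 9.08 (Mcm6) in WT BMDMs, 3.09-fold apart, and from 11.4 (Mcm5) to 23.7 (Mcm7) in 3T3 in WT medium, 2.08-fold apart. Mcm2 was thus the lowest subunit in BMDMs and the third highest in 3T3, where Mcm7 and Mcm4 (22.4 ± 0.737) stood above it at 19.9 ± 0.659. These levels and their order depend on the transcript chosen. With the median of the coding transcripts of each gene as the length, the medians over the list, averaged likewise, were 6.05 and 13.4 CPM per kb. Pcna then stayed first in BMDMs of both labels, but in 3T3 in WT medium Mcm4 (122 CPM per kb), Mcm7 (88.3) and Tyms (62.7) led and Pcna, at 36.2, was at rank 8. With the Pcna-ps2 counts added, Pcna came to 53.4 CPM per kb there, which is rank 5 with this length and still the first rank with the longest transcript. The lowest genes became Cdc6 in WT BMDMs and Brip1 in 3T3 in WT medium. The Mcm2-7 subunits then ran from 3.05 (Mcm2) to 37.6 (Mcm4) CPM per kb in WT BMDMs, 12.3-fold apart, and from 14.5 (Mcm5) to 122 (Mcm4) in 3T3 in WT medium, 8.42-fold apart.

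**Figure D4:**
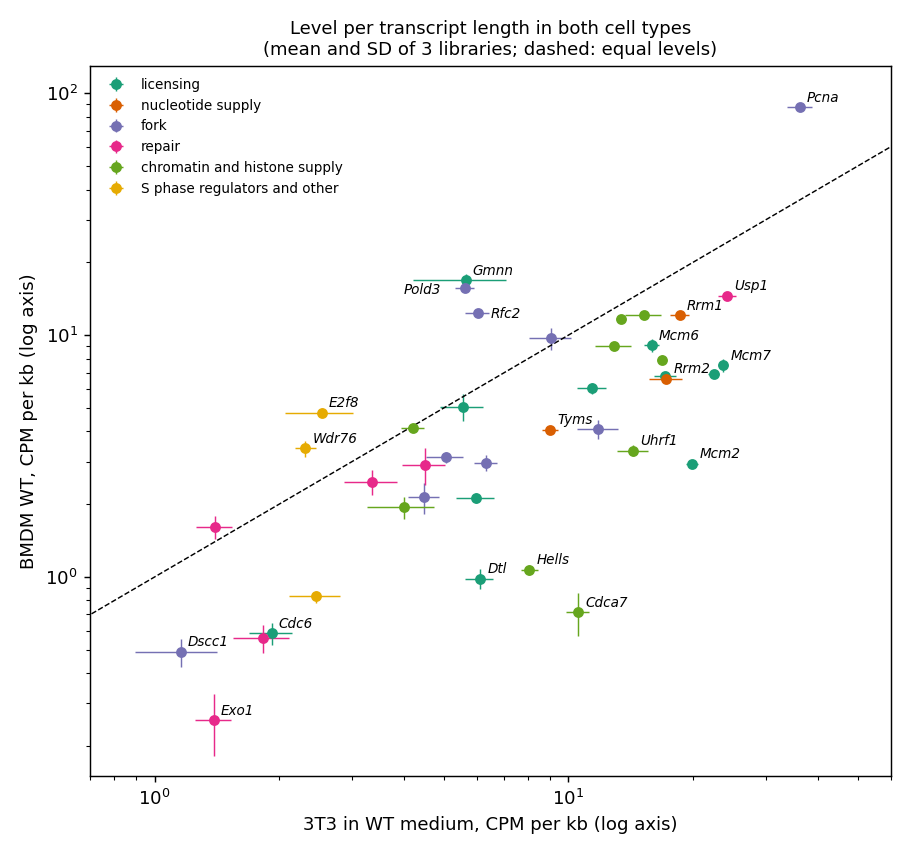
Level per length (CPM per kb, log axes) of the 41 genes in 3T3 in WT medium (x axis) and in WT BMDMs (y axis), coloured by role, as means of 3 libraries with bars of 1 SD and a dashed line of equal levels. Most points lie below the line, Pcna lies above it at 36.2 CPM per kb in 3T3 and 87.4 in BMDMs, and Cdca7 and Hells lie far below it.

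The promoter matches can be set beside the calls. In 3T3, 7 of the 15 higher genes with a promoter sequence held an E2F motif (Mcm3, Mcm5, Mcm6, Mcm7, Dtl, Pola1 and Uhrf1, all printed above), as did 2 of the 16 genes not called (Casp8ap2 and Clspn). In BMDMs it was 4 of 8 higher genes (Mcm3, Mcm6, Dtl and Clspn) and 5 of 23 not called. Rrm2, Mcm2 and Rrm1, higher in both cell types, and Pcna, whose 3T3 value is uncertain, have no match of these letters in the window. When only the last 150 bases of the window were searched, 5 of the 31 genes held the motif.

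The other genes of the pathway were described as 5 lists of 131 genes in all, to be read against the shares of all genes tested that passed by edgeR, 3.38% higher and 3.35% lower in BMDMs and 8.93% higher and 6.75% lower in 3T3. In BMDMs labelled PHD2cko, 5 of 48 further genes of the replication machinery were higher and 1 was lower. The 3 with the largest rise were Cdc7 (log2 fold change 0.49), the kinase that fires origins, Cdt1 (0.42), the Mcm loader, and Lig1 (0.39), the ligase that joins Okazaki fragments, and the nuclease Dna2 (-0.39) fell. Dna2 rose in 3T3 in PHD2cko medium (0.37, adjusted p = 0.0255, edgeR), and the difference between its label effects passed (0.75 on the log2 scale, SE 0.123, adjusted p = 0.00145, edgeR). Its mean was 43.7 CPM in WT BMDMs and 33.4 CPM in those labelled PHD2cko, and its rise in 3T3 was not tested with the macrophage share subtracted. In 3T3 in PHD2cko medium 12 of 48 were higher and 1 lower, led by the histone chaperone Asf1b (0.57), Mcm10 (0.44) and Ticrr (0.42), both of origin firing, with a fall of the polymerase delta subunit Pold4 (-0.35). Of these, Cdc7 passed in 10 of 12 fits without 1 library, Mcm10 in 11 and Ticrr in 7, while Cdt1, Lig1, Asf1b, Pold4 and the fall of Dna2 in BMDMs passed in all 12.

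Of 14 further genes of nucleotide supply, 3 were higher and 1 lower in each cell type, not all of them the same genes, and the higher genes numbered 2 by limma-voom in BMDMs and 2 by DESeq2 in 3T3. In BMDMs the higher genes included Dut (0.52), which removes dUTP, and the thymidine kinase Tk1 (0.34), against the deoxycytidine kinase Dck (-0.36), and without 1 library Dut passed in 7 of 12 fits and Tk1 in 8. In 3T3 they included Dck (0.52) and Tk1 (0.36), against Impdh2 (-0.27) of guanine nucleotide synthesis. Dck thus rose in 3T3 and fell in BMDMs, and the difference between its label effects passed (0.89 on the log2 scale, SE 0.117, adjusted p = 0.000425, edgeR).

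The E2F and RB regulators moved both ways. In BMDMs 2 of 20 were higher, E2f7 (0.62) and Tfdp2 (0.22), and 2 lower, E2f2 (-0.62) and Cdkn1a (-0.24). The calls of E2f7 and Tfdp2 were narrow: limma-voom did not call E2f7, DESeq2 did not call Tfdp2, and without 1 library E2f7 passed in 4 of 12 fits and Tfdp2 in 6 of 12. In 3T3 5 of 20 were higher, among them E2f6 (1.30), E2f2 (1.28) and Lin54 (0.35), and 2 were lower, the cyclin-dependent kinase inhibitors Cdkn1a (-0.53) and Cdkn1b (-0.20). Cdkn1a, whose product p21 blocks entry into S phase and binds PCNA, was thus lower in both by edgeR, but in BMDMs it passed in 6 of 12 fits without 1 library, and in 3T3 in all 12. E2f2 fell in BMDMs, from 61.3 to 39.9 CPM, and rose in 3T3, from 1.64 to 4.03 CPM, and the difference between these effects passed (1.90 on the log2 scale, adjusted p = 0.000439, edgeR). With the macrophage share subtracted, the log2 fold change of E2f2 in 3T3 was 1.15 (adjusted p = 0.00404, edgeR), while E2f6 no longer passed (0.96, adjusted p = 0.138, edgeR). E2f6 passed in 4 of 8 other settings and in 1 of 12 fits without 1 library, and Lin54 in 10 of 12 such fits.

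Of 24 genes of homologous recombination and mismatch repair, 5 were higher in BMDMs, among them Rad54b (0.49) and Brca1 (0.48), and 6 in 3T3, led by Fanci (0.44), Fancm (0.43) and Fanca (0.42). The count in BMDMs was 3 by DESeq2 and 2 by limma-voom, and without 1 library Rad54b passed in 4 of 12 fits and Brca1 in 5 of 12. In 3T3 Fanca passed in 5 of 12 such fits. None was lower in either by edgeR, DESeq2 or limma-voom, and 0 were lower at an unadjusted p under 0.05 by edgeR. The 25 genes of G2 and mitosis, which act after replication, were higher for 6 genes in BMDMs, led by Bub1 (0.36), Nusap1 (0.32) and Anln (0.31), and for 17 in 3T3, led by the proliferation marker Mki67 (0.64), Ccnb2 (0.43) and Bub1 (0.42). In BMDMs, without 1 library, Nusap1 passed in 4 of 12 fits and Bub1 and Anln in 8 of 12. In 3T3 Ccnb2 passed in 8 of 12 and was not called by limma-voom, nor with the macrophage share subtracted (0.35, adjusted p = 0.071, edgeR). All 25 had a positive log2 fold change in both cell types, with medians of 0.23 and 0.28, close to those of the 41 replication genes. Between the cell types they went the other way from the replication genes, with 17 of 25 higher and 4 lower in WT BMDMs than in 3T3 in WT medium and a median log2 fold change of 0.46. In that contrast 40.4% of all genes tested were higher and 44.9% lower.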

How the data were processed

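The authors deposited estimated counts per gene, made with Kallisto on GRCm38 and given as whole numbers, without normalization. How the estimates became whole numbers is not given in the sources used here. Counts were tested as deposited with edgeR 4.0.16 in R 4.3.3: filterByExpr over the 4 groups kept 14285 genes, libraries were scaled by TMM, and all 12 were fitted together (two-sided quasi-likelihood test, Benjamini-Hochberg adjustment, threshold 0.05). CPM are per effective library size, scaled to 1e6. Standard errors are log2 fold changes over the root of F. Lengths come from GENCODE on GRCm38 and promoters from RefSeq on GRCm38.p6. The 41 genes and all other lists were chosen with earlier results of these data known. The other pathway genes named are, per list and direction, the 3 with the largest fold change among those past the threshold with a mean of 1 CPM or more in either group. Some of these genes and a background allele shared by all mice are not reported here. Same-numbered replicates were checked for pairing and are not said to belong together. The steps were tested on simulated data of 14090 genes: of 100 genes changed 1.5-fold, 73 were found in BMDMs and 80 in 3T3, and of 100 changed 2-fold 96 and 94, with 16 false among 185 calls and 5 among 179. Changes under 1.5-fold, which most of the 41 genes showed, were not simulated, so the share found at those sizes is not known. Alternatives were DESeq2 1.42.0 (size factors, Wald test), total counts, limma-voom (limma 3.58.1), 2 other filters, the replicate block, 1 cell type alone, subtraction of macrophage RNA and leaving out each library. Adding the counts of Pcna-ps2 to Pcna was chosen after seeing the data.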

Additional observations from a re-analysis of the deposited data

Results flagged for a closer look

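Tyms was noted because its label effect differed between the cell types by the interaction test, with 0.381 on the log2 scale more in 3T3 than in BMDMs (adjusted p = 0.0253, edgeR). The 3 BMDM libraries labelled PHD2cko were all below the 3 WT libraries, at 11.97 to 14.4 against 15.4 to 16.04 CPM, and the 3T3 libraries in PHD2cko medium were all above those in WT medium, at 36.6 to 40.6 against 33.4 to 36.3 CPM. Neither effect passed the threshold in its own cell type.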

How the results depend on the processing

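No gene past the threshold changed direction under any setting. Among genes short of it, the sign of the log2 fold change differed between settings for 6 in BMDMs (Fen1, Prim1, Dscc1, Ung, Nasp and E2f8), for 1 in 3T3 (Ubr7) and for 10 in the difference between the cell types. Past the threshold in all other settings and in all 12 fits without 1 library were 4 of the 9 genes called in BMDMs and 10 of the 17 called in 3T3. Over the fits that left out 1 library, the replication genes higher in BMDMs numbered 4 to 9 and those lower 0 to 1, with 527 to 1889 of all genes called, and those higher in 3T3 numbered 11 to 25, with 1260 to 2757 of all genes. For the difference between the cell types the range was 0 to 5 higher and 0 to 1 lower, with 1272 to 2316 of all genes. The median log2 fold change ran from 0.16 to 0.22 in BMDMs and from 0.21 to 0.29 in 3T3. With the 6 libraries of a cell type alone, 2534 genes of all were called in BMDMs and 912 in 3T3, and 13 of the replication genes were higher in BMDMs (31.7%, against 9.79% of all genes) and 12 in 3T3 (29.3%, against 4.23%). The genes with a higher effect in 3T3 than in BMDMs numbered 2 with DESeq2 size factors, with the DESeq2 Wald test and with the macrophage share subtracted, and 3 with total counts and with at least 10 counts in every library, and 1 was lower by the DESeq2 Wald test. The median level per length was 6.05 CPM per kb in WT BMDMs and 13.4 in 3T3 with the median coding transcript. An E2F motif was in promoters of 5 genes with the last 150 bases. The cause of these shifts was not tested, except that the last window is shorter by construction. Same-numbered libraries did not deviate together (correlations from -0.0247 to 0.0235 in BMDMs and from -0.0822 to 0.0418 in 3T3). With the replicate block, 7 replication genes were higher in BMDMs and 17 in 3T3, and 815 and 1953 of all genes were called. At the lowest depth 3 counts, the floor, came to 0.193 CPM.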
